A study of Mus musculus with 20 samples.

Results

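A set of 8 genes of hepatic carbohydrate metabolism was followed in mouse liver: 8 of the 53599 gene symbols in the count tables. They were taken by name, but chosen with earlier results of these data known. They encode the liver isoform of pyruvate kinase (Pklr), ketohexokinase (Khk), the cytosolic phosphoenolpyruvate carboxykinase (Pck1), fructose bisphosphatase (Fbp1), the glucose transporter GLUT2 (Slc2a2), liver glycogen synthase (Gys2) and a pair of subunits that bring protein phosphatase 1 to glycogen (Ppp1r3b and Ppp1r3c). RNA was sequenced from 20 bulk liver samples of mice without PPARα, a nuclear receptor activated by fatty acids (KO), or of mice that expressed human PPARα (hPPARa). The labels do not state what drives the human gene, nor whether those mice keep their own. All of them ate a custom diet in which carbohydrate gave 51.8%, fat 33.5% and protein 14.7% of the energy, and drank water with 0.5% sucrose from weaning for 6 to 7 weeks, so the control water held sucrose too. The water held nothing else (vehicle) or held perfluorooctanoic acid, a long-lived fluorinated compound (PFOA), at 8 µM, a unit printed as µm in the design text and read here as micromolar. The hPPARa libraries were from 3 females and 2 males on vehicle and 2 females and 3 males on PFOA. The KO libraries were from 1 female and 3 males on vehicle and 3 females and 3 males on PFOA. Whether each library stands for its own animal is not said in the labels, and the p-values reflect the spread among libraries, part of which could be technical.

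As background, the liver takes up glucose through GLUT2 and fructose is trapped by ketohexokinase, and both sugars are turned into pyruvate by a path whose last step is pyruvate kinase. In fasting the liver makes glucose in the reverse direction, with phosphoenolpyruvate carboxykinase and fructose bisphosphatase at steps that glycolysis cannot run backward. Glycogen synthase stores glucose as glycogen and is switched on when protein phosphatase 1, guided by its glycogen-targeting subunits, removes its phosphates. Pklr and Khk are known to rise with dietary sugar through the carbohydrate-responsive factor ChREBP, whereas Pck1 is known to rise in fasting through glucagon and cyclic AMP.

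Total counts per library ran from 14973673 to 17953860. The Ppara row, the targeted gene, had 8.42 to 25.1 CPM (counts scaled to a common library size with TMM factors) in KO and 16.9 to 39.6 CPM in hPPARa libraries; which part is deleted is not stated in the labels, so the row does not check them. Other-sex transcripts were found in 3 KO libraries. The Y-linked gene Ddx3y was at 1.86 CPM in KO female vehicle replicate 1 and at 4.06 CPM in KO female PFOA replicate 2, against 0.415 CPM or less in the other females. Xist, from the inactive X chromosome, was at 30.8 CPM in KO male PFOA replicate 2, above each of the other males. For the 8 genes, and for genes named by rule from the lists, a KO call that is lost without these 3 libraries is given with its adjusted p there; without them 630 genes were called with PFOA in KO, against 2113 with them. The hepatocyte marker albumin (Alb) was at 35528 CPM or more in every library. Adipocyte markers summed to at most 3.47 CPM and skeletal muscle markers to at most 9.92 CPM in any library. In bulk tissue, fewer cells of a type and less RNA per cell cannot be told apart.

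Promoters of the 4 genes that passed a PFOA test are shown first, because those of Pklr and Pck1 are known for their sugar and cyclic AMP response sequences. Each is the 250 bases before the transcription start, 5′ to 3′ on the gene's strand, from RefSeq (GRCm38.p6, not the build of the counts), with the motifs found in capitals. Pklr has more than 1 listed start, and the downstream one, used in liver, is shown (chr3:89136373-89136622, plus strand). Khk (chr5:30921309-30921558) and Pck1 (chr2:173152823-173153072) are on the plus strand and Fbp1 (chr13:62888283-62888532) is on the minus strand.
Pklr: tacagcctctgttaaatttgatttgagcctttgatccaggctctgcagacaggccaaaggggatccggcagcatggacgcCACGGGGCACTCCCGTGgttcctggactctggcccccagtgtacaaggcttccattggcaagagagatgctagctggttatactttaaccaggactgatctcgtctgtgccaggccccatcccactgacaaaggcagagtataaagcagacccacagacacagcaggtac
Khk: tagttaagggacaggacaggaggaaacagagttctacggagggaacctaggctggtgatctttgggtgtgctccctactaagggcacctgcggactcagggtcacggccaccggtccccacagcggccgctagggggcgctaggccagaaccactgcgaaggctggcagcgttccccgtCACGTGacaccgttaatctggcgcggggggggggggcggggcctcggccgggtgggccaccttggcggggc
Pck1: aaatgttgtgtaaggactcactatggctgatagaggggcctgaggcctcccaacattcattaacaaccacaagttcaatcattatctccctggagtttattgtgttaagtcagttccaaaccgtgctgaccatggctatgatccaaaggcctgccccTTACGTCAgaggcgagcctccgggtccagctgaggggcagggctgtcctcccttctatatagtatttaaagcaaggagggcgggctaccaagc
Fbp1: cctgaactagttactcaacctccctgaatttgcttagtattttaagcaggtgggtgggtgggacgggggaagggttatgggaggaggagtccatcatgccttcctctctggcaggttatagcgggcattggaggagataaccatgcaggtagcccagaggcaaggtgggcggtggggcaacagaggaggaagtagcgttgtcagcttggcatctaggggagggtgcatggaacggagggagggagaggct
In Pklr the capitals mark CACGGG and CCCGTG with 5 bases between them, the pair of E-box-like sites of its known carbohydrate response element, 170 to 154 bases before the start. This motif was written from the Pklr element itself, so its presence in 1 of 32851 promoter windows, that of Pklr, is not independent. Khk holds the E-box CACGTG 71 to 66 bases before its start, a motif found on either strand in 6.02% of the windows and also in that of Ppp1r3c. Pck1 holds TTACGTCA, its known cyclic AMP response element, 93 to 86 bases before the start, found in 0.447% of the windows. The motif searched was that known element, so its presence in Pck1 is not independent either. Fbp1 held none of these. The nuclear receptor half-site AGGTCA (14% of windows) was found in Slc2a2 and before the upstream Pklr start, and its direct repeat with 1 base between the copies (0.0335% of windows) in no member window. These are matches of letters, and no binding was measured; Gys2 and Ppp1r3b had no entry in the promoter table.

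The first comparison set the 5 hPPARa libraries on PFOA against the 5 on vehicle, adjusting for sex. Pklr, Khk, Pck1 and Fbp1 fell and none of the 8 rose, where a gene is said to rise or fall when its p, from the edgeR quasi-likelihood fit and adjusted by the Benjamini-Hochberg method over the 14400 genes tested, is under 0.05. Of those 14400 genes 22.6% were called, 12.8% higher and 9.76% lower. The median log2 fold change of the 8 was −0.49, and that of all genes tested −0.01. The arms did not overlap for Pklr, Khk, Fbp1 and Slc2a2, each lower with PFOA, as for 5.67% of all genes tested.

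Pklr, which makes the pyruvate kinase of sugar-fed liver, had 221, 204 and 184 CPM in the hPPARa females and 243 and 359 CPM in the hPPARa males on vehicle. On PFOA it had 92.2 and 136 CPM in the females and 94.6, 118 and 152 CPM in the males. Every PFOA library was below every vehicle library, in both sexes. The fall was 2.11-fold (log2 fold change −1.07 ± 0.17 SE, adjusted p = 0.000821). Within a sex, where 18.4% of the genes tested were called in females and 8.20% in males, the log2 fold change was −0.84 ± 0.23 in females (adjusted p = 0.0299) and −1.31 ± 0.23 in males (adjusted p = 0.00383), each called, and these did not differ by the test of the difference (−0.47 ± 0.32, adjusted p = 0.624; 95% interval −1.18 to 0.23).

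Khk, whose enzyme phosphorylates fructose, had 579, 729 and 635 CPM in the hPPARa females and 613 and 619 CPM in the hPPARa males on vehicle. On PFOA the values were 338 and 379 CPM in females and 368, 366 and 401 CPM in males. The arms stood well apart, with 401 CPM the highest on PFOA and 579 CPM the lowest on vehicle, and the spread within an arm was small: 635 ± 56.4 CPM on vehicle against 370 ± 22.7 CPM on PFOA (SD, n = 5 each). The fall was 1.72-fold (log2 fold change −0.78 ± 0.10, adjusted p = 0.000111), and it passed in females (−0.86 ± 0.14, adjusted p = 0.00122) and in males (−0.70 ± 0.13, adjusted p = 0.00523). The calls of Pklr and Khk held in all 19 alternative settings run, with log2 fold changes of −1.24 to −0.90 and of −0.81 to −0.73. Of the hepatocyte markers 6 of 9 tested fell and 0 rose in hPPARa (median −0.43), where 9.76% of all genes tested fell. Their summed level was 116157 to 210843 CPM on vehicle and 86677 to 125049 CPM on PFOA, and these arms overlapped. In KO 2 of 9 fell and 0 rose (median −0.34), where 6.36% of all genes tested fell. The KO sums did not overlap, at 94589 to 111713 CPM on vehicle and 70244 to 91897 CPM on PFOA. Whether the fall of these markers had a part in those of Pklr and Khk was not tested.

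**Figure D1:**
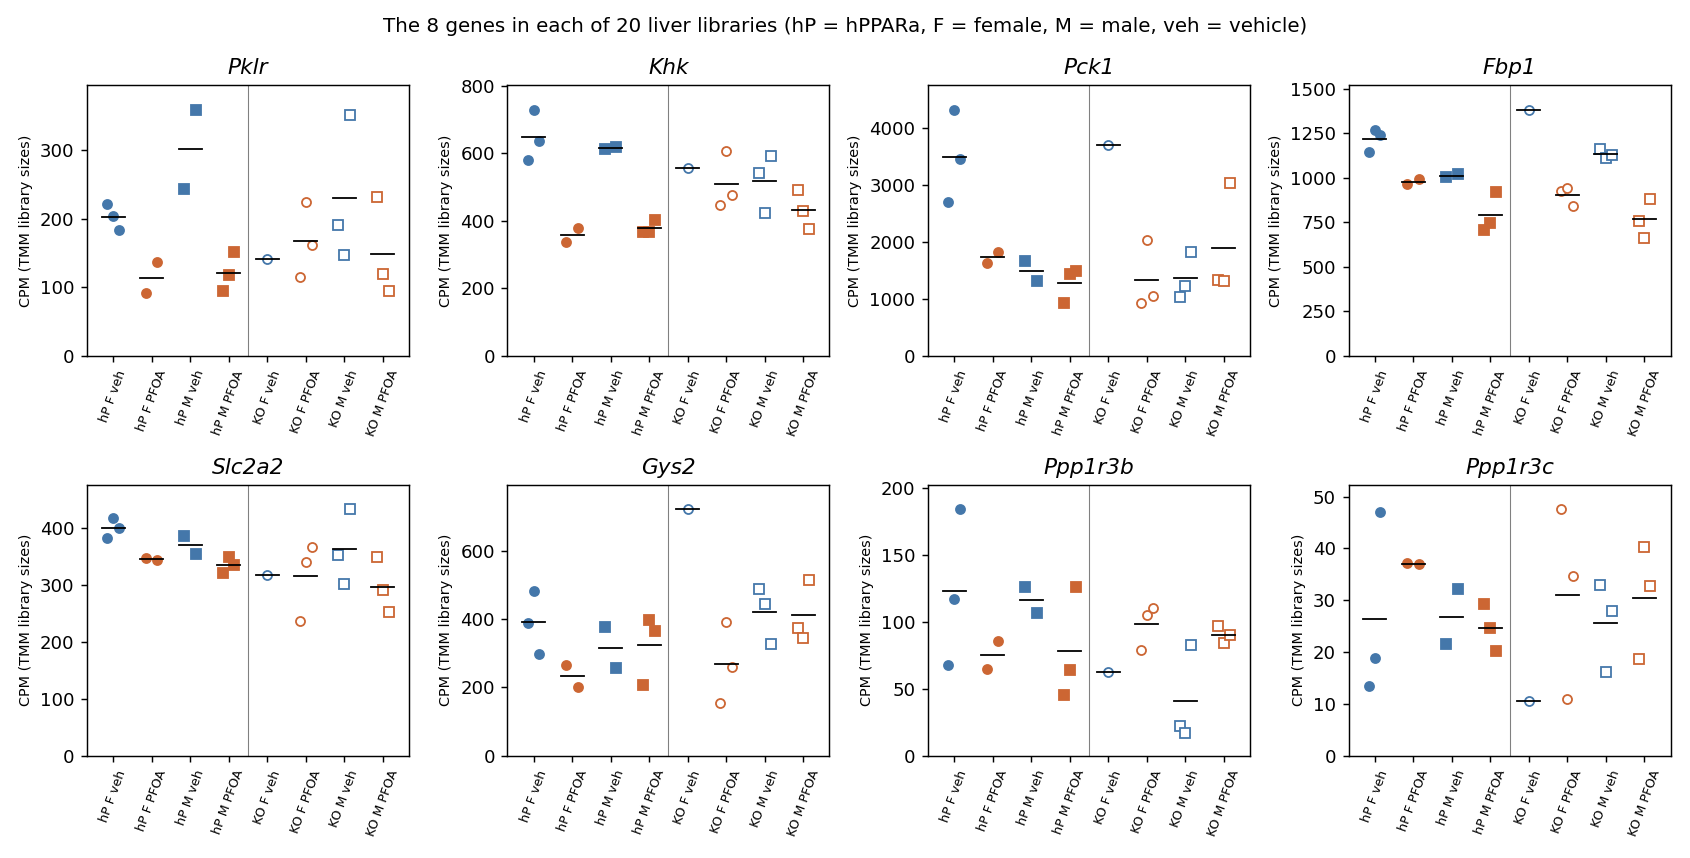
Level of each of the 8 genes in CPM (linear axis from 0) in the 20 libraries, by genotype, sex and exposure. Each symbol is a library (circles females, squares males, filled hPPARa, open KO, blue vehicle, orange PFOA), and bars are group means. In hPPARa the Pklr libraries on PFOA lie at 92.2 to 152 CPM and those on vehicle at 184 to 359 CPM, while in KO the Pklr arms overlap.

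Without the receptor, in 6 PFOA and 4 vehicle KO libraries, Pklr and Khk did not pass the test. Of the 8 genes 1 was called, Fbp1, which fell, where 13.8% of 15334 genes tested were called, 7.41% higher and 6.36% lower. The median log2 fold change of the 8 was −0.24, against −0.02 for all genes tested. Pklr in KO had 142 CPM in the female and 191, 147 and 351 CPM in the males on vehicle, and 116, 225 and 162 CPM in females and 232, 120 and 94.6 CPM in males on PFOA. The arms overlapped, with the highest value in a vehicle male and the lowest in a PFOA male. The log2 fold change was −0.36 ± 0.39 (adjusted p = 0.599; 95% interval −1.25 to 0.54). That interval holds the value measured in hPPARa.

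Khk in KO had 556 CPM in the female and 540, 422 and 591 CPM in the males on vehicle. On PFOA it had 446, 605 and 477 CPM in females and 491, 429 and 376 CPM in males. The highest KO library was a PFOA female, and the arms overlapped. The log2 fold change was −0.22 ± 0.13 (adjusted p = 0.294; 95% interval −0.50 to 0.06). That interval does not hold the hPPARa value of −0.78. The difference between the genotypes in the PFOA effect was itself tested in 1 fit of the 20 libraries, in which 1.17% of 15811 genes were called and 0 of the 8. For Khk the effect in KO minus that in hPPARa was 0.56 ± 0.16 on the log2 scale (unadjusted p = 0.00247, adjusted p = 0.101). This difference passed in 2 of 29 alternatives, with DESeq2 (adjusted p = 0.0298) and with no filter on low counts (adjusted p = 0.0252). For Pklr the difference was 0.71 ± 0.44 (adjusted p = 0.505; 95% interval −0.23 to 1.65). Neither difference passed the threshold; the 95% interval for Khk, 0.22 to 0.90, did not hold 0, and that for Pklr did.

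**Figure D2:**
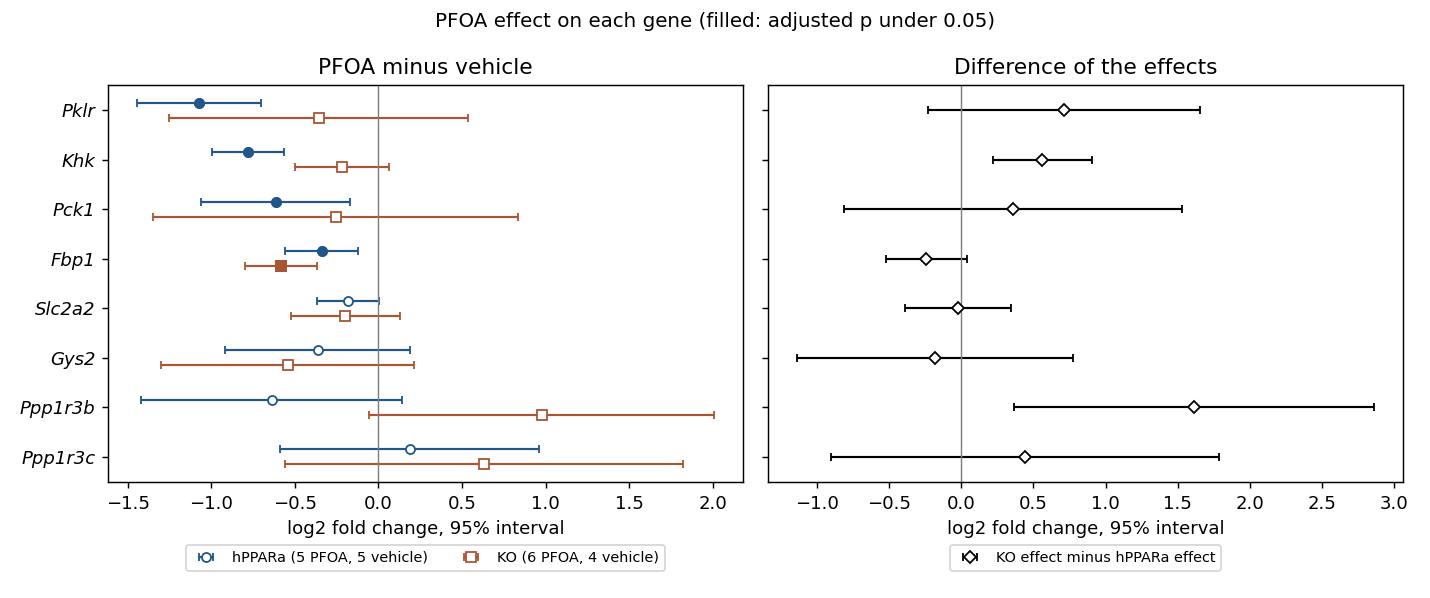
Left, log2 fold change of PFOA against vehicle for each gene with its 95% interval, in hPPARa (circles, 5 against 5 libraries) and KO (squares, 6 against 4). Right, the KO effect minus the hPPARa effect. Filled symbols have an adjusted p under 0.05: Pklr, Khk, Pck1 and Fbp1 in hPPARa, Fbp1 in KO, and none of the differences.

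Of the gluconeogenic pair, Fbp1, whose enzyme removes a phosphate from fructose bisphosphate, was the only one of the 8 that passed in both genotypes. In hPPARa it had 1143, 1270 and 1239 CPM in females and 1003 and 1021 CPM in males on vehicle, and 965 and 993 CPM in females and 705, 746 and 917 CPM in males on PFOA. In KO it had 1382 CPM in the female and 1160, 1108 and 1129 CPM in the males on vehicle, and 925, 943 and 842 CPM in females and 757, 664 and 878 CPM in males on PFOA. The arms did not overlap in either genotype. Of all genes tested in KO, 3.97% were lower with PFOA with arms that did not overlap. In hPPARa the fall was 1.27-fold (−0.34 ± 0.10, adjusted p = 0.0270), a call lost in 7 of 19 alternatives: with library totals as the scaling (adjusted p = 0.0523) and without male vehicle replicate 1 or 2, female vehicle replicate 2, male PFOA replicate 2 or female PFOA replicate 1 or 2 (adjusted p = 0.0534 to 0.0861). In KO the log2 fold change was −0.58 ± 0.10 (adjusted p = 0.00225); without the 3 libraries with other-sex transcripts it was −0.47 (adjusted p = 0.0938). By sex, Fbp1 passed in neither hPPARa males (−0.36 ± 0.14, adjusted p = 0.144) nor hPPARa females (−0.32 ± 0.14, adjusted p = 0.126). In KO males, where 9.10% of genes were called, it passed (−0.56 ± 0.12, adjusted p = 0.0140). In KO females, where 5.31% were called, the value was −0.63 ± 0.16 (adjusted p = 0.0459), but vehicle is there 1 library, with other-sex transcripts, so it does not stand as a separate check. The genotypes' effects were not shown to differ (KO minus hPPARa −0.24 ± 0.13, adjusted p = 0.441).

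Pck1, the cytosolic enzyme that commits oxaloacetate to glucose, varied widely among vehicle livers. Female hPPARa livers on vehicle had 2702, 4325 and 3467 CPM and males 1666 and 1314 CPM. With PFOA the females had 1635 and 1825 CPM and the males 931, 1437 and 1499 CPM. The female arms, of 3 vehicle and 2 PFOA libraries, did not overlap, whereas the male arms did. How often arms this small stand apart over all genes was not counted. Pooled over sexes the fall was 1.53-fold (−0.62 ± 0.21, adjusted p = 0.0478), a call lost in 10 of 19 alternatives. It was lost without any 1 of the vehicle females, male vehicle replicate 1, male PFOA replicate 1 or either PFOA female (adjusted p = 0.0572 to 0.177), with library totals (0.0673), without the robust fit (0.0508) and in 1 fit of the 20 libraries (0.292). The log2 fold change was −1.02 ± 0.23 in females (adjusted p = 0.0107) and −0.21 ± 0.23 in males (adjusted p = 0.661), and the difference of 0.82 ± 0.32 between the sexes had an adjusted p of 0.418 (unadjusted 0.0264), where 0.104% of genes tested were called. In KO the lone vehicle female had 3703 CPM and the vehicle males 1032, 1221 and 1832 CPM, against 925, 2038 and 1059 CPM in PFOA females and 1328, 1319 and 3041 CPM in PFOA males. The KO log2 fold change was −0.26 ± 0.47 (adjusted p = 0.770), and it turned to 0.48 without the vehicle female and to 0.68 without the 3 libraries with other-sex transcripts.

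Slc2a2, the gene of the bidirectional glucose transporter GLUT2, had the lowest estimated spread of the 8 in hPPARa. Vehicle libraries had 383, 418 and 401 CPM in females and 387 and 355 CPM in males, and PFOA libraries 349 and 344 CPM in females and 322, 350 and 335 CPM in males. The arms were apart by a narrow margin, 350 against 355 CPM, and the log2 fold change of −0.18 ± 0.09 did not pass (adjusted p = 0.151; 95% interval −0.37 to 0.01), although it did with DESeq2 (adjusted p = 0.0380). In KO the arms overlapped, at 302 to 433 CPM on vehicle and 237 to 367 CPM on PFOA (−0.20 ± 0.15, adjusted p = 0.422).

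The 3 glycogen genes did not pass the test with PFOA in either genotype, and their intervals were wide. Gys2, which encodes the liver glycogen synthase, had 255 to 483 CPM on vehicle and 200 to 397 CPM on PFOA in hPPARa (−0.36 ± 0.25, adjusted p = 0.324). In KO it had 721 CPM in the vehicle female and 489, 445 and 327 CPM in the vehicle males, against 155, 391 and 260 CPM in PFOA females and 374, 345 and 514 CPM in PFOA males (−0.54 ± 0.33, adjusted p = 0.319). The lone vehicle female was the highest of the 20 libraries and a PFOA female the lowest, a 2.71-fold lower level in KO females that did not pass (−1.44 ± 0.42, adjusted p = 0.0995). Without the vehicle female the KO log2 fold change was −0.03, and without the 3 libraries with other-sex transcripts it was 0.08.

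Ppp1r3b, the main glycogen-targeting subunit of liver, was lower with PFOA in hPPARa and higher in KO, with neither change past the threshold. In hPPARa vehicle livers it had 67.8, 117 and 184 CPM in females and 126 and 106 CPM in males, and in PFOA livers 64.6 and 85.8 CPM in females and 45.0, 63.9 and 126 CPM in males (−0.64 ± 0.34, adjusted p = 0.218; −0.67, adjusted p = 0.0282, with a replicate block, although the numbers were not found to pair the libraries). KO vehicle livers had 62.5 CPM in the female and 22.4, 16.8 and 82.8 CPM in the males, whereas all 6 KO PFOA livers lay between 79.1 and 110 CPM (0.98 ± 0.44, adjusted p = 0.192). KO male vehicle replicate 1 and replicate 2, at 22.4 and 16.8 CPM, were the 2 lowest of the 20 libraries. Without KO male vehicle replicate 3 the KO log2 fold change was 1.52 and passed (adjusted p = 0.0258). The effect in KO minus that in hPPARa was 1.61 ± 0.58 (unadjusted p = 0.0147, adjusted p = 0.221; 95% interval 0.37 to 2.86) and passed in 0 of 29 alternatives. Ppp1r3c, the related subunit known for its induction in fasting, had 13.5 to 47.0 CPM on vehicle and 20.1 to 37.1 CPM on PFOA in hPPARa (0.19 ± 0.34, adjusted p = 0.730), and 10.5 to 32.9 CPM and 10.9 to 47.5 CPM in KO (0.63 ± 0.51, adjusted p = 0.468; −0.00 without the 3 libraries with other-sex transcripts).

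The spread of these genes differed. The estimated biological coefficient of variation in hPPARa was 12.2% for Slc2a2, 13.4% for Khk and 13.6% for Fbp1, against 26.6% for Gys2, 36.1% for Ppp1r3b and 36.4% for Ppp1r3c. Ppp1r3b and Ppp1r3c were more variable than 93.3% and 93.4% of the genes tested. Clock gene transcripts differed between libraries too. The 3 libraries with the lowest Gys2 (155 CPM in KO female PFOA replicate 1, 200 CPM in hPPARa female PFOA replicate 2 and 206 CPM in hPPARa male PFOA replicate 1) were also the 3 lowest in the period gene Per3, at 29.0, 23.3 and 31.1 CPM. Per3 was picked as one of the genes most like Gys2 over these libraries, so this is no independent sign. The related gene Per1 was at 11.4, 29.0 and 22.1 CPM in them, ranks 1, 8 and 3 from the lowest of 20. The clock gene Dbp, named after its values were seen, had ranks 2, 1 and 3 in these libraries. Arntl had ranks 20, 19 and 17 and Nr1d1 ranks 20, 14 and 18, counted in the same way. In hPPARa 6 of 16 clock genes fell with PFOA and 1 rose, and in KO 2 fell and 1 rose. Of all genes tested 9.76% fell and 12.8% rose in hPPARa, and 6.36% fell and 7.41% rose in KO. Per3 was at 57.4 to 104 CPM in hPPARa vehicle and at 23.3 to 58.7 CPM in hPPARa PFOA libraries. The labels give no time of day for the collection, and the part of the clock in the Gys2 values was not tested.

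Levels were also compared between genotypes and sexes. On vehicle 0 of the 8 differed between KO and hPPARa, where 4.52% of 15811 genes were called; the widest of these differences was that of Ppp1r3b, at −1.24 ± 0.52 (adjusted p = 0.205), which passed without KO male vehicle replicate 3 (−1.77, adjusted p = 0.0281). On PFOA 1 of the 8 was called, where 16.4% of genes were called: Khk was 1.27-fold higher in KO (0.35 ± 0.11, adjusted p = 0.0311), a call lost in 7 of 28 alternatives. These left out hPPARa male PFOA replicate 2, either hPPARa PFOA female, KO male PFOA replicate 1 or 2 or KO female PFOA replicate 2 (adjusted p = 0.0537 to 0.146), or the 3 libraries with other-sex transcripts (0.120). The KO PFOA libraries had 376 to 605 CPM of Khk, and the hPPARa PFOA libraries 338 to 401 CPM. Between the sexes 1 of the 8 was called in hPPARa, where 3.48% of 14400 genes were called: Pck1 was 1.77-fold lower in males (−0.82 ± 0.21, adjusted p = 0.0481), a call lost in 9 of 17 alternatives. It was lost without any 1 of the 5 vehicle libraries, male PFOA replicate 1 or female PFOA replicate 2 (adjusted p = 0.0557 to 0.167), with library totals (0.0527) and with a filter at 1 CPM in 3 libraries (0.0511). In KO 0 of the 8 differed by sex, where 3.41% of 15334 genes were called.

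The pathways around these genes were described from lists chosen with earlier results of these data known. Beside the counts of these lists stand the shares over all genes tested: 12.8% rose and 9.76% fell in hPPARa. In KO 7.41% rose and 6.36% fell. In the fructose and sorbitol list 5 of 9 genes fell and 0 rose in hPPARa (median −0.40), and 2 fell in KO (median −0.25). Besides Khk they included Glyctk (glycerate kinase, −0.68 ± 0.10, adjusted p = 0.000297), Tkfc (triokinase, which acts further along the same path, −0.69 ± 0.12, adjusted p = 0.000995) and Sord (sorbitol dehydrogenase, −0.55 ± 0.11, adjusted p = 0.00274). In KO, Glyctk (−0.44 ± 0.08, adjusted p = 0.00209) and Sord (−0.43 ± 0.11, adjusted p = 0.0178) fell; without the 3 libraries with other-sex transcripts neither passed (adjusted p = 0.0811 and 0.101), and Sord did not pass without KO male PFOA replicate 3 (0.0531). The Tkfc libraries of hPPARa were at 401 to 518 CPM on vehicle and 234 to 313 CPM on PFOA and did not overlap, as was so of Glyctk, at 92.0 to 125 CPM and 59.9 to 82.0 CPM.

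In the glycolysis list 5 of 23 genes fell and 1 rose in hPPARa, and 4 of 24 fell in KO, with medians of 0.05 and −0.16. Without Pklr and Slc2a2, which this list holds, 4 of 21 fell and 1 rose in hPPARa, and 4 of 22 fell in KO. Of all genes tested 22.6% were called in hPPARa and 13.8% in KO. Pfkfb2, a bifunctional regulator of phosphofructokinase, fell in hPPARa (−0.72 ± 0.18, adjusted p = 0.0132) and had −0.53 ± 0.18 in KO (adjusted p = 0.0744). Pfkl, the liver phosphofructokinase, fell in KO (−0.52 ± 0.08, adjusted p = 0.00102). In the gluconeogenesis list 4 of 13 fell and 2 rose in hPPARa, and 1 of 13 fell in KO. Without Pck1 and Fbp1, which this list holds, 2 of 11 fell and 2 rose in hPPARa, and 0 of 11 fell in KO. In hPPARa Slc37a4, the transporter of glucose 6-phosphate into the endoplasmic reticulum, fell (−0.61 ± 0.12, adjusted p = 0.00308), and Gpd1, a glycerol phosphate dehydrogenase, rose (0.71 ± 0.15, adjusted p = 0.00493). In KO they had −0.28 ± 0.16 (adjusted p = 0.271) and 0.50 ± 0.16 (adjusted p = 0.0509). G6pc, the glucose 6-phosphatase of the last step, named after its values were seen, had 0.23 ± 0.48 in hPPARa (adjusted p = 0.774), with libraries from 61.1 to 338 CPM on PFOA. The other gene that rose, named after its values were seen, was Fbp2, the muscle isoform and neighbour of Fbp1, at 0.682 to 1.88 CPM in hPPARa PFOA livers and at most 0.138 CPM on vehicle. In KO Fbp2 had −2.63 ± 0.94 (adjusted p = 0.0787), at a mean of 0.228 CPM. The test of the difference between genotypes called 1 gene of this list, with a mean under 1 CPM, lower as KO minus hPPARa. It called 1.17% of 15811 genes.

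**Figure D3:**
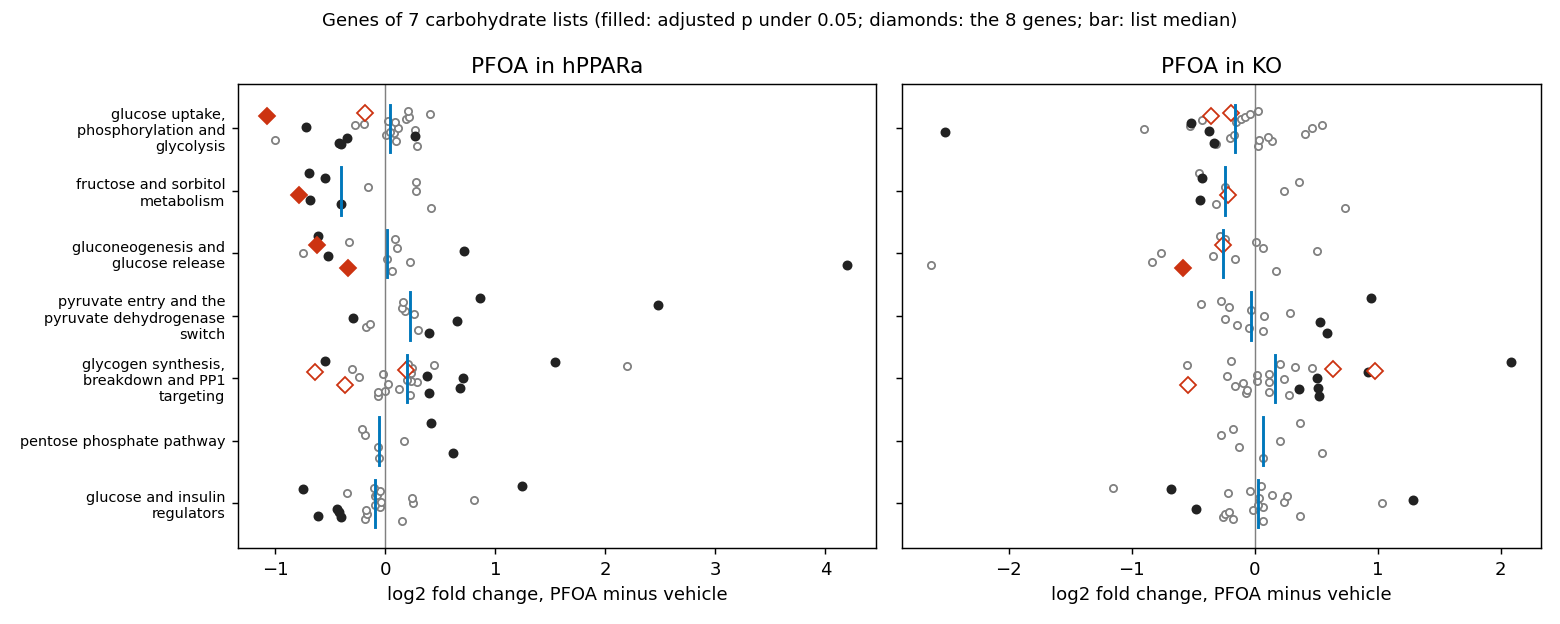
Log2 fold change of PFOA against vehicle for the tested genes of 7 lists of carbohydrate metabolism and its regulators, in hPPARa (left) and KO (right). Each symbol is a gene, filled where the adjusted p is under 0.05; red diamonds are the 8 genes and blue bars the list medians. In hPPARa the fructose list median is −0.40 and that of the glycogen list 0.20.

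In the glycogen list, which holds Gys2, Ppp1r3b and Ppp1r3c, 5 of 27 genes rose and 1 fell in hPPARa (median 0.20), and 6 of 26 rose and 0 fell in KO (median 0.16). Stbd1, a glycogen-binding protein that tethers glycogen to membranes, rose in both genotypes. It was at 42.3 to 68.1 CPM on vehicle and 139 to 181 CPM on PFOA in hPPARa (1.54 ± 0.13, adjusted p = 4.59e-06), and at 37.9 to 76.9 CPM and 203 to 247 CPM in KO (2.09 ± 0.16, adjusted p = 8.14e-06), and held in every alternative run. Gyg, the glycogenin primer (0.68 ± 0.11, adjusted p = 0.000908), and Phkb, a subunit of phosphorylase kinase (0.71 ± 0.12, adjusted p = 0.00106), rose in hPPARa. Both rose in KO too, at 0.51 ± 0.14 each (adjusted p = 0.0240 and 0.0256), a pair of KO calls not examined without the 3 libraries. Ppp1cc, a catalytic subunit of protein phosphatase 1 (0.92 ± 0.19, adjusted p = 0.00607), rose in KO (adjusted p = 0.121 without the 3 libraries). In the pyruvate dehydrogenase list 4 of 12 rose and 1 fell in hPPARa, and 3 of 13 rose and 0 fell in KO. Pdha1, a subunit of the complex (0.65 ± 0.10 and 0.53 ± 0.11), and Pdp2, the phosphatase that activates it (0.86 ± 0.15 and 0.95 ± 0.14), rose in both genotypes, although in KO neither passed without the 3 libraries (adjusted p = 0.101 and 0.0519).

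Pdk4, the kinase that shuts the same complex and a known PPARα target, was at 3.42 to 4.98 CPM on vehicle and 13.9 to 51.0 CPM on PFOA in hPPARa (2.48 ± 0.41, adjusted p = 0.00345), and at 3.87 to 14.7 CPM and 4.06 to 10.6 CPM in KO. Its PFOA effect differed between genotypes (−2.93 ± 0.62, adjusted p = 0.0369), a call lost in 11 of 29 alternatives: without any 1 of 10 libraries, 6 of them hPPARa and 4 KO (adjusted p = 0.0517 to 0.141), and without the 3 with other-sex transcripts (0.287). Among the regulators 5 of 21 fell and 1 rose in hPPARa, and 2 fell and 1 rose in KO. The gene that rose was Txnip, a sugar-responsive arrestin that restrains glucose uptake and, like Pklr, is known as a ChREBP target. It was at 57.5 to 87.3 CPM on vehicle and 143 to 193 CPM on PFOA in hPPARa (1.24 ± 0.13, adjusted p = 2.18e-05), and at 40.0 to 98.6 CPM and 55.1 to 73.4 CPM in KO. Its effect differed between genotypes (−1.20 ± 0.23, adjusted p = 0.0139); without KO female vehicle replicate 1 this was −0.84 (adjusted p = 0.0601), and without the 3 libraries with other-sex transcripts −0.74 (adjusted p = 0.207). Cebpb (−0.61 ± 0.12, adjusted p = 0.00306) and the glucagon receptor gene Gcgr (−0.44 ± 0.11, adjusted p = 0.0120) fell in hPPARa, and in KO Gcgr fell (−0.48 ± 0.09, adjusted p = 0.00346; 0.0807 without the 3 libraries) and the insulin signalling adaptor Irs1 rose (1.28 ± 0.22, adjusted p = 0.00218). In the pentose phosphate list Pgd (0.61 ± 0.12) and Tkt (0.42 ± 0.08) were the 2 of 7 that rose in hPPARa. In KO 0 were called, with 0.55 ± 0.21 for Pgd (adjusted p = 0.120) and 0.37 ± 0.16 for Tkt (adjusted p = 0.164). The PFOA effect differed between genotypes for 0 of the 7.

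Zone and quality lists were read beside these. Over all genes tested 12.8% rose and 9.76% fell in hPPARa, and 7.41% rose and 6.36% fell in KO. Of 10 periportal genes 7 fell and 1 rose in hPPARa (median −0.46) and 2 fell in KO; Pck1 and Fbp1 are among the 10. The others included Ass1 (−0.94 ± 0.16, adjusted p = 0.00105) and Arg1 (−0.54 ± 0.11, adjusted p = 0.00306), enzymes of the urea cycle. In KO, Ass1 fell as well (−0.70 ± 0.12, adjusted p = 0.00191; 0.0804 without the 3 libraries), and Arg1 had −0.34 ± 0.11 (adjusted p = 0.0650). The summed periportal level was 14229 to 17803 CPM on vehicle and 10720 to 12349 CPM on PFOA in hPPARa. In KO it was 14124 to 16930 CPM on vehicle and 11138 to 14045 CPM on PFOA. The arms of this sum did not overlap in either genotype, by a narrow margin in KO. Of 9 pericentral genes 2 fell and 1 rose in each genotype. Of 7 mitochondrially encoded genes tested 2 fell in each genotype. Within hPPARa all 7 fell in females (median −0.78) and 0 in males (median −0.02), where 18.4% and 8.20% of all genes tested were called. Their share of counts was 6.62% and 6.89% in the hPPARa PFOA females and 10.7% to 12.7% in the vehicle females. Pck1 passed within hPPARa females and not within males, but its PFOA effect was not shown to differ between the sexes by the test of the difference (adjusted p = 0.418). The neutrophil and lymphocyte markers summed to 97.3 to 335 CPM in KO PFOA livers and to 19.9 CPM or less in the other 14, mostly through S100a8. In KO this was the only one called, 1 of 7 tested, and S100a9 was at 2.02 CPM or less in every library. In hPPARa 1 of 6 rose. Cholangiocyte markers fell in KO (5 of 6, median −1.95), with sums of 50.5 to 187 CPM on vehicle and 15.9 to 46.5 CPM on PFOA. Within KO males 0 of 6 were called (median −1.16). The median was −3.02 in KO females, where vehicle is 1 library with other-sex transcripts. These calls were not examined without the 3 libraries. In hPPARa 0 of 5 were called. Of 8 Kupffer cell and macrophage markers 3 fell in hPPARa and 3 rose in KO. Of 8 stellate cell and fibroblast markers 3 fell in hPPARa and 4 in KO, and of 8 sinusoidal endothelial markers 4 rose in hPPARa and 1 in KO. The part of these in the values of the 8 genes was not tested.

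How the 8 varied together was described over the 20 libraries, on log2 CPM, in 28 pairs. Pklr and Khk ran together most closely (Pearson r = 0.81, adjusted permutation p = 0.00028; Spearman rho = 0.82, adjusted permutation p = 0.00028), and r was 0.83 without the 2 libraries farthest from the median of Pklr. It was 0.85 over the 10 hPPARa and 0.80 over the 10 KO libraries. After group means were removed r was 0.79, over 19 libraries, because the KO vehicle female is alone in its group and was left out. Slc2a2 ran with Pklr (r = 0.65, rho = 0.68, adjusted permutation p = 0.0184 and 0.0185; 0.63 without the 2 farthest libraries, 0.74 within groups, 0.55 in hPPARa and 0.90 in KO). Gys2 and Ppp1r3c ran in opposite directions (r = −0.65, rho = −0.62, adjusted permutation p = 0.0184 and 0.0255), and r was −0.46 without the 2 libraries farthest from the median of Gys2. In all, 6 of the 28 pairs had an adjusted permutation p under 0.05 for Pearson's r. The unadjusted p for Pklr and Khk, 1e-05, is the smallest that 100000 resamples can give. The libraries share exposure and genotype, so these values describe the set and not a relation within 1 condition.

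**Figure D4:**
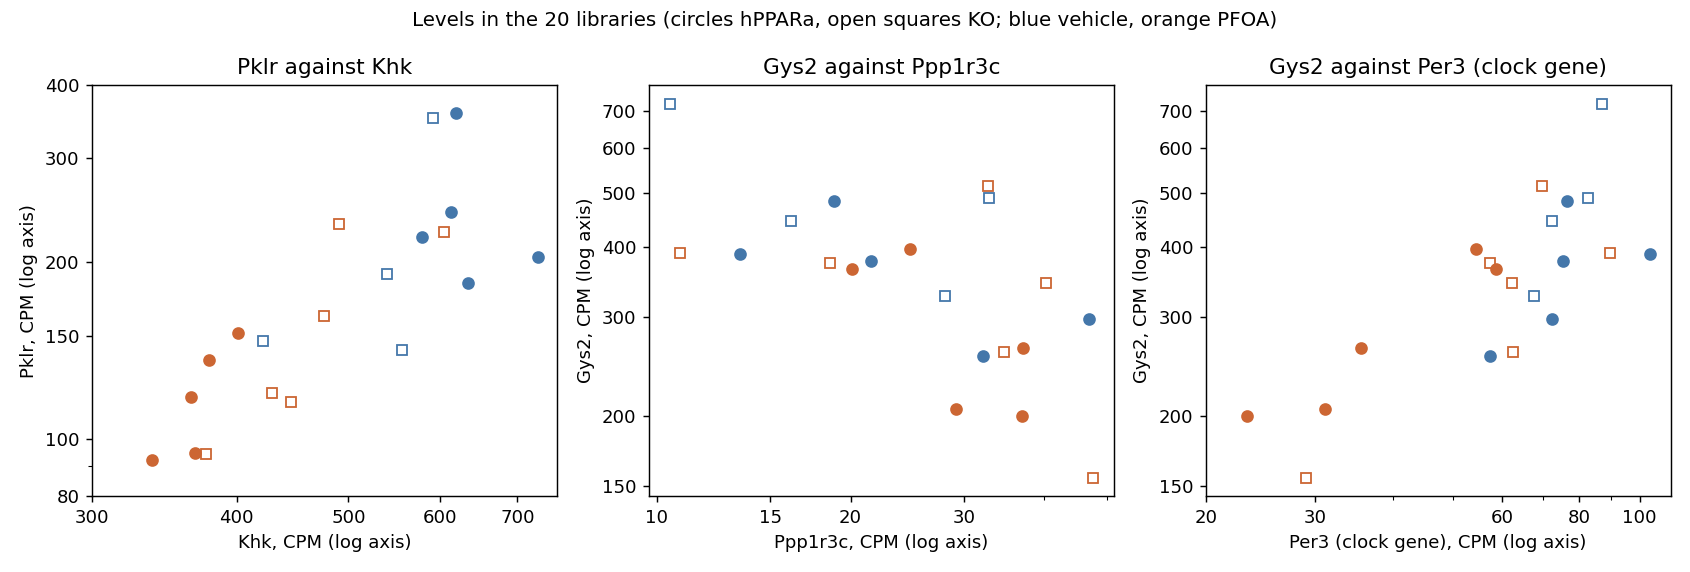
Levels in CPM in the 20 libraries, on log axes, of Pklr against Khk, Gys2 against Ppp1r3c and Gys2 against the clock gene Per3 (circles hPPARa, open squares KO, blue vehicle, orange PFOA). Pklr rises with Khk across the plot (r = 0.81), and the 3 libraries lowest in Gys2 lie at the left edge of the Per3 axis.

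The genes most like each member in their pattern over the 20 libraries were taken from 11631 genes with a mean of at least 1 CPM. For Pklr they were Hcn3 (r = 0.87) and Ido2 (0.84), for Khk Plscr2 (0.89) and Gamt (0.87), and for Fbp1 Mmd2 (0.91) and Tcf7 (0.91). For Pck1 they were Arl4d (0.86) and AA986860 (0.85), and for Slc2a2 Vps9d1 (0.77) and Arhgap6 (0.76). For Gys2 they were Stk35 (0.81) and Per3 (0.80), for Ppp1r3b Ppp1r10 (0.82) and Smurf2 (0.78), and for Ppp1r3c Myorg (0.77) and Ddc (0.77). For comparison, 1 gene in 10 had an r above 0.42 with Pklr and above 0.50 with Fbp1. After group means were removed, again over 19 libraries, the value fell to 0.25 for Fbp1 with Tcf7 and 0.47 for Khk with Plscr2. It was 0.84 for Pklr with Hcn3 and 0.87 for Gys2 with Per3. Hcn3, an ion channel gene, is the next coding gene after Pklr on chromosome 3 and overlaps it in the RefSeq annotation (GRCm38.p6). Hcn3 was at 12.5 to 27.5 CPM on vehicle and 2.19 to 4.16 CPM on PFOA in hPPARa, and at 7.63 to 23.2 CPM and 3.99 to 13.9 CPM in KO. Without a stated strand setting for the counting, reads of the overlap cannot be told apart. The same holds for Fbp1 and Slc2a2, which overlap the unnamed transcripts Gm38679 and 1700112D23Rik.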

How the data were processed

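The authors deposited 2 tables of whole-number read counts per gene, 1 per genotype, with 53599 gene symbols each, of which 17159 have no count in any library. Per the submitters' processing notes the build was GRCm39 and the tools were STAR 2.5.3, featureCounts 1.6.1, cutadapt 1.15, FastQC 0.11.5, edgeR 3.36.0 and R 4.1.0; their roles, the gene annotation and any use of strand are not given in the sources. Per the labels' protocols, RNA with an integrity number above 7 was sequenced from bulk liver.

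The counts were tested as deposited in R 4.3.3 with edgeR 4.0.16 (TMM factors, low counts filtered by group, robust quasi-likelihood fit, Benjamini-Hochberg adjustment over all genes tested, threshold 0.05). PFOA effects were fitted within a genotype with sex as a term, and differences between genotypes in 1 fit of the 20 libraries. CPM use TMM factors of the joined tables, and log2 CPM a prior count of 2. The scripts were tested on simulated data. Alternatives were DESeq2 1.42.0, other filters and scalings, a replicate block and leaving out libraries. From each list up to 3 genes were named by smallest adjusted p among called genes whose mean reached 1 CPM, and for each member the 2 genes most like it. Some genes that this rule takes are counted with their lists but not reported here. The members, lists and motifs were chosen with earlier results of these data known. Total counts of 14973673 to 17953860 per library limit the precision for genes near 1 CPM.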

Additional observations from a re-analysis of the deposited data

Results flagged for a closer look

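Of the pathway genes named by rule, 2 had a PFOA effect that differed between the genotypes by the test of the difference (edgeR, 20 libraries). For Pdk4 the effect in KO minus that in hPPARa was −2.93 on the log2 scale (adjusted p = 0.0369), and for Txnip it was −1.20 (adjusted p = 0.0139). Among 32 sets of a gene's values within a genotype and exposure, 0 held a library that stood apart from the others by Dixon's test, where chance gives about 1 in 20.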

How the results depend on the processing

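PFOA in hPPARa called 3253 genes and 4 of the 8 members, 1905 to 3889 genes and 2 to 4 members when 1 library was left out, and 2 members with library totals as the scaling. In KO it called 2113 genes and 1 member, 1401 to 2129 genes and 1 to 2 members with 1 library left out, and 630 genes and 0 members without the 3 KO libraries that hold other-sex transcripts. The difference between genotypes was called for 185 genes and 0 members (67 to 239 genes and 0 members with 1 library left out), for 421 genes and 1 member with DESeq2, 545 genes and 1 member with no filter, 310 genes with sexes weighted equally and 39 genes without those 3 libraries. The difference between sexes in hPPARa was called for 15 genes and 0 members (4 to 27 genes and 0 members), for 138 genes with DESeq2, 323 genes and 1 member with no filter and 24 genes without the robust fit. KO against hPPARa on vehicle gave 715 genes and 0 members (338 to 858 genes and 0 to 1 members), and on PFOA 2593 genes and 1 member (1541 to 2752 genes and 0 to 1 members), with 0 members without the 3 libraries. Sex in hPPARa gave 501 genes and 1 member (255 to 686 genes and 0 to 1 members), 927 genes and 2 members with DESeq2, 1088 genes with no filter, and 0 members with library totals or with a filter at 1 CPM in 3 libraries. Sex in KO gave 523 genes and 0 members (127 to 609 genes and 0 members), 930 genes with DESeq2, 1322 with no filter and 94 without the 3 libraries. The causes were not tested.

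Same-numbered libraries deviated together (correlation over 0.1) in 1 of 13 pairs in hPPARa and 0 of 9 in KO. Differently numbered ones did so in 2 of 24 and 1 of 18 pairs. The numbers were thus not found to pair samples, although a check on so few libraries per group cannot exclude it. With a replicate block the counts in the order above were 3029, 1485, 164, 18, 689, 2693, 468 and 206 genes, and 5, 1, 0, 0, 0, 1, 1 and 0 members; Ppp1r3b joined those lower in hPPARa (−0.67, adjusted p = 0.0282). Of the calls named for listed genes, 21 of 31 in hPPARa, 6 of 23 in KO and 0 of 2 for the difference between genotypes held in every alternative. KO against hPPARa on vehicle could not be fitted without the single KO vehicle female, alone or with the other 2 of those 3 libraries.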
